A study of Mus musculus with 31 samples.

Results

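IL-6 family cytokine and SOCS3 signaling is described here through 10 genes: the ligands *Il6*, *Il11*, *Lif* and *Osm*, the receptor chains *Il6ra*, *Il6st* and *Osmr*, the transcription factor *Stat3*, and the inhibitors *Socs3* and *Cish*. They were taken by gene symbol and make up 10 of the 39179 genes in the deposited counts. Cytokines of the IL-6 family bind receptor complexes that share the signaling chain gp130, the product of *Il6st*, and the kinases bound to these complexes phosphorylate STAT3. Phosphorylated STAT3 enters the nucleus and activates genes that include *Socs3*, whose product binds gp130 and its kinases and dampens the signal. In melanoma these cytokines can come from the tumor cells and from the immune and stromal cells around them, and glucocorticoids are known to repress several cytokine genes, *Il6* among them.

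The samples were 20 tumors and 11 cultures of the mouse melanoma line 20967, which derives from C57BL/6 mice with an LSL-G12D allele of *Nras* and the Cre driver Tyr::CreERT2. The glucocorticoid was clobetasol propionate, and the knockout (GRKO) cells carry an edit of *Nr3c1*, the gene of the glucocorticoid receptor. RNA was sequenced from its 3′ ends and deposited as integer read counts per gene. The question the design addresses is how a glucocorticoid acts on melanoma cells that have or lack their own receptor.

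Tumors fell into 4 groups of 5: parental and GRKO tumors, each with control treatment or with clobetasol ointment at 0.05% put on the skin 3 times a week. Control treatment of the skin was cetraben cream, so the vehicle of the ointment itself was not a group. All tumors grew in wild-type C57BL/6 hosts, whose immune and stromal cells keep their receptor, also in GRKO tumors. Parental and GRKO cells were cultured for 48 hours with DMSO (3 cultures of each) or clobetasol (2 parental and 3 GRKO cultures). The sample labels give 10 µM for the drug, while the design text of the series and the names of the clobetasol libraries, also in the count table, give 1 µM, and the counts cannot settle which was used. The GRKO cells are 1 clone, so differences between GRKO and parental samples cannot be told apart from differences between this clone and the line.

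Library totals ran from 15528066 to 26386770 counted reads in tumors and from 14441166 to 22463188 in cultures. Levels are given as CPM, read counts scaled to the TMM-corrected size of the library, and since each transcript gives about 1 read at its end, levels of different genes are compared without division by length. A gene with 3 counts or fewer in a sample is at the floor of detection, which is 0.112 to 0.22 CPM in tumors and 0.136 to 0.207 CPM in cultures. Floors cover counting error only, while intervals of fold changes also hold the spread between replicates, through the SE. Fold changes are on the log2 scale with their standard error (SE), and a gene is called when edgeR gives an adjusted p under 0.05 and a fold change of at least 1.5. Over all genes tested, 15919 in tumors and 12525 in cultures, p-values were adjusted together.

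Counts of *Nr3c1* were 995, 1190, 873, 1028 and 1401 in parental control tumors, 1046, 466, 1090, 757 and 874 in parental clobetasol tumors, 282, 457, 460, 824 and 383 in GRKO control tumors, and 1074, 402, 1291, 613 and 1088 in GRKO clobetasol tumors. Cultures had 510, 487 and 606 (parental, DMSO), 573 and 739 (parental, clobetasol), 478, 440 and 304 (GRKO, DMSO) and 366, 475 and 207 (GRKO, clobetasol). Reads at the end of the transcript lie outside the edit and do not check it, and GRKO samples still made transcript ends of *Nr3c1*. Scaled, *Nr3c1* had 26.9 CPM in GRKO and 54.6 CPM in parental control tumors, a lower level by edgeR (-1.02, adjusted p = 0.0313 from edgeR). This call was lost without any 1 of the 5 parental control tumors or GRKO control tumor 1, 2 or 5 (-1.08 to -0.94, adjusted p up to 0.0860 from edgeR), without the 3 GRKO control tumors 1, 2 and 5 (-0.76) and with genes detected as a covariate (-0.63). In DMSO cells it was -0.67, which edgeR did not call (adjusted p = 0.0840 from edgeR) and DESeq2 called. Clobetasol tumors had 41.9 CPM of *Nr3c1* in GRKO and 42.6 CPM in parental tumors, a log2 difference of -0.024 that was not called. With clobetasol *Nr3c1* changed by 0.64 in GRKO tumors (unadjusted p under 0.05 from edgeR) and -0.36 in parental tumors, neither of them called.

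Melanocyte markers were low against the label of a melanoma. The summed level of 7 such markers was 25.7 to 55.9 CPM in tumors and 3.10 to 11.9 CPM in cultures, and the most abundant was *Mitf*, with 19.7 to 49.2 CPM in tumors and 3.01 to 11.7 CPM in cultures. *Tyr*, which encodes the enzyme that starts melanin synthesis, had 0 counts in every sample, and *Dct*, *Mlana* and *Sox10* had 0 counts in every culture. *Ptprc*, the leukocyte antigen CD45, lay between 21.0 and 67.2 CPM in tumors and between 0 and 0.538 CPM in cultures, so leukocyte transcripts were near 0 in cultures and not in tumors. In such bulk samples, fewer cells of a type and less RNA per cell cannot be told apart.

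Among the libraries, 3 GRKO control tumors had the fewest genes detected. With every tumor thinned to 15528066 reads, GRKO control tumors 1, 5 and 2 had 13406, 14268 and 14804 genes detected and GRKO control tumors 3 and 4 had 15144 and 16787. All tumors of the other groups lay between 15166 and 16906, so GRKO control tumor 3 also lay just below them. Cultures were even, with 13728 to 14420 genes at 14441166 reads. Calls in comparisons that use GRKO control tumors were therefore also computed without tumors 1, 2 and 5, chosen once the data had been seen, which leaves 2 tumors in that group.

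*Il6* encodes interleukin-6, the cytokine that gives the family its name. It had 0 counts in 15 of 20 tumors and in 8 of 11 cultures. Its counts were 0, 0, 1, 1 and 0 in parental control tumors, 2, 0, 0, 0 and 0 in parental clobetasol tumors, 0 in all 5 GRKO control tumors, and 0, 0, 3, 26 and 0 in GRKO clobetasol tumors. The 26 counts, or 1.38 CPM, in GRKO clobetasol tumor 4 were the single value above the floor in tumors. No culture had more than 2 counts of *Il6*. *Il6* did not reach the minimum for testing in either experiment, so no fold change is given, and an effect of clobetasol on it was not detectable at this depth.

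*Lif* encodes leukemia inhibitory factor, which signals through gp130 and the LIF receptor. Its counts in tumors were 0, 0, 2, 1 and 0 (parental control), 1, 1, 4, 3 and 7 (parental clobetasol), 0, 0, 0, 11 and 0 (GRKO control) and 1, 0, 1, 0 and 4 (GRKO clobetasol). Cultures had 4, 1 and 3 counts of *Lif* (parental, DMSO), 11 and 8 (parental, clobetasol), 4, 7 and 4 (GRKO, DMSO) and 8, 2 and 6 (GRKO, clobetasol). In parental cultures both clobetasol values lay above the 3 DMSO values, but the gene was under the minimum for testing in tumors and cultures, and these counts carry no test.

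*Osm* encodes oncostatin M, a cytokine made mainly by leukocytes. It had 0 counts in all 11 cultures and in 6 of 20 tumors. Tumor counts of *Osm* were 0, 2, 1, 9 and 26 (parental control), 2, 11, 0, 0 and 0 (parental clobetasol), 3, 1, 8, 20 and 1 (GRKO control) and 5, 0, 7, 0 and 8 (GRKO clobetasol). All groups overlapped, and each held tumors at the floor. It was tested in tumors only.

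*Il11* encodes interleukin-11, and it was the one ligand above the floor in every sample. Its levels were 1.78, 7.91, 5.91, 2.54 and 3.69 CPM in parental control tumors, 1.53, 9.26, 4.55, 9.30 and 2.79 CPM in parental clobetasol tumors, 0.659, 4.36, 2.32, 5.40 and 7.13 CPM in GRKO control tumors and 3.48, 10.1, 5.53, 2.75 and 2.32 CPM in GRKO clobetasol tumors. Group means lay between 3.97 and 5.49 CPM with SDs of 2.52 to 3.63 CPM (n = 5 each), so the 4 tumor groups did not differ beyond their spread. *Il11* had 2.08, 1.35 and 1.17 CPM in parental DMSO cultures, 1.10 and 0.949 CPM in parental clobetasol cultures, 1.51, 1.43 and 2.21 CPM in GRKO DMSO cultures and 1.77, 1.51 and 2.52 CPM in GRKO clobetasol cultures. Both parental clobetasol cultures lay below every other culture.

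*Il6st*, which encodes the shared chain gp130, had the highest median of the 10 genes in tumors and varied the least among those tested. Its levels were 305, 289, 336, 315 and 341 CPM in parental control tumors, 302, 247, 291, 317 and 285 CPM in parental clobetasol tumors, 336, 297, 274, 277 and 274 CPM in GRKO control tumors, and 285, 291, 247, 270 and 245 CPM in GRKO clobetasol tumors. The highest tumor had 1.39 times the level of the lowest, and the 4 groups overlapped. Cultures showed another picture, with 64.1, 57.2 and 64.6 CPM in parental DMSO cultures and 103 and 111 CPM in parental clobetasol cultures. GRKO cultures had 62.0, 61.8 and 59.8 CPM of *Il6st* with DMSO and 58.1, 70.6 and 60.0 CPM with clobetasol. The 2 parental clobetasol cultures stood above all 9 others, which lay together. In order, the means were 107 ± 5.57 CPM in parental clobetasol cultures (SD, n = 2), 62.9 ± 6.77 CPM in GRKO clobetasol cultures, 62.0 ± 4.10 CPM in parental DMSO cultures and 61.2 ± 1.23 CPM in GRKO DMSO cultures (SD, n = 3 each), and the last 3 did not differ beyond their spread.

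*Il6ra* encodes the chain that binds interleukin-6. Its tumor levels were 23.4, 14.2, 4.53, 14.1 and 3.87 CPM (parental control), 27.0, 24.9, 18.9, 26.3 and 21.7 CPM (parental clobetasol), 17.0, 13.8, 9.84, 5.25 and 10.6 CPM (GRKO control) and 15.1, 16.5, 20.9, 13.5 and 14.1 CPM (GRKO clobetasol). Parental clobetasol tumors were the highest group, and of the parental control tumors 1 reached into their range. In cultures *Il6ra* had 12.9, 12.7 and 10.9 CPM (parental, DMSO), 16.6 and 13.0 CPM (parental, clobetasol), 9.03, 7.97 and 7.37 CPM (GRKO, DMSO) and 10.6, 8.22 and 8.45 CPM (GRKO, clobetasol). Every GRKO culture lay below every parental culture. Between the DMSO groups alone, 32.6% of all genes tested did not overlap.

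*Osmr* encodes the oncostatin M receptor chain that pairs with gp130. Its tumor levels were 3.69, 8.44, 8.49, 7.74 and 19.4 CPM (parental control), 9.29, 4.55, 10.6, 2.51 and 6.72 CPM (parental clobetasol), 4.54, 3.17, 7.72, 10.8 and 2.83 CPM (GRKO control) and 17.9, 4.74, 11.1, 3.92 and 18.1 CPM (GRKO clobetasol). Highs and lows stood side by side within each group, and all groups overlapped. In cultures *Osmr* was low, and near the floor in GRKO cultures, with 1.11, 0.677 and 1.82 CPM (parental, DMSO), 2.28 and 1.81 CPM (parental, clobetasol), 0.312, 0.668 and 0 CPM (GRKO, DMSO) and 0.228, 0.378 and 0.315 CPM (GRKO, clobetasol). GRKO cultures lay below parental cultures here too, but only by the scaling to library size. The highest GRKO culture had 0.668 CPM from 14 counts and the lowest parental culture 0.677 CPM from 11 counts.

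*Stat3* encodes the transcription factor that the activated receptors phosphorylate, and its transcript level does not measure that phosphorylation. It had 181, 252, 179, 256 and 253 CPM in parental control tumors, 253, 96.2, 255, 115 and 235 CPM in parental clobetasol tumors, 425, 268, 377, 425 and 333 CPM in GRKO control tumors and 295, 194, 175, 198 and 238 CPM in GRKO clobetasol tumors. Every GRKO control tumor lay above every tumor that was parental, and all but GRKO control tumor 2 lay above every GRKO clobetasol tumor. The group means were 366 ± 66.6 CPM in GRKO control tumors, 224 ± 40.2 CPM in parental control tumors, 220.02 ± 47.7 CPM in GRKO clobetasol tumors and 191 ± 78.3 CPM in parental clobetasol tumors (SD, n = 5 each), and the last 3 did not differ beyond their spread. Cultures had 88.6, 78.9 and 98.0 CPM of *Stat3* (parental, DMSO), 117 and 123 CPM (parental, clobetasol), 90.2, 103 and 109 CPM (GRKO, DMSO) and 88.4, 113 and 108 CPM (GRKO, clobetasol). The 2 parental clobetasol cultures were the highest of the 11. The 3′ end of *Stat3* overlaps that of *Stat5a* on the other strand, which had at most 326 counts in a sample. The strand setting of the counting is not named, and the study states defaults for settings it does not specify.

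*Socs3* encodes the feedback inhibitor of gp130 signaling. Its tumor levels were 2.29, 11.2, 11.5, 19.96 and 23.2 CPM (parental control), 11.1, 1.26, 11.8, 1.33 and 6.95 CPM (parental clobetasol), 0.806, 1.61, 3.69, 40.0 and 3.07 CPM (GRKO control) and 20.6, 2.64, 7.24, 1.59 and 20.6 CPM (GRKO clobetasol). It was the most uneven of the members with counts in every tumor: the highest had 49.6 times the level of the lowest, and both stood in the GRKO control group. Group means were 13.6 ± 8.23, 6.47 ± 5.07, 9.83 ± 16.9 and 10.5 ± 9.41 CPM in the same order (SD, n = 5 each), so no neighbours in their order differed beyond their spread. In cultures *Socs3* had 5.01, 0.862 and 6.64 CPM (parental, DMSO), 9.86 and 4.47 CPM (parental, clobetasol), 8.98, 26.9 and 10.0 CPM (GRKO, DMSO) and 14.4, 6.14 and 2.84 CPM (GRKO, clobetasol). GRKO DMSO cultures lay above parental DMSO cultures, while the clobetasol groups overlapped with both.

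*Cish* encodes CIS, a relative of SOCS3 best known as a target and inhibitor of STAT5 signaling. Its tumor levels were 60.4, 52.5, 47.8, 50.4 and 36.2 CPM (parental control), 38.73, 17.1, 27.0, 15.5 and 33.6 CPM (parental clobetasol), 24.8, 49.0, 63.7, 81.0 and 43.6 CPM (GRKO control) and 40.3, 35.4, 40.8, 27.4 and 26.9 CPM (GRKO clobetasol). Of the parental clobetasol tumors 1 reached above the lowest parental control tumor, and the other 4 lay below the whole control group. Cultures stood below every tumor, with 6.37, 2.09 and 5.11 CPM of *Cish* (parental, DMSO), 6.28 and 3.48 CPM (parental, clobetasol), 9.19, 3.58 and 4.68 CPM (GRKO, DMSO) and 5.59, 4.35 and 4.54 CPM (GRKO, clobetasol). All culture groups overlapped. *Cish* overlaps *Gm17040*, which had at most 5 counts in a sample.

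In tumors the order of median levels was *Il6st* at 290.1 CPM, *Stat3* at 252 CPM, *Cish* at 39.5 CPM, *Il6ra* at 14.6 CPM, *Osmr* at 7.73 CPM, *Socs3* at 7.09 CPM, *Il11* at 4.02 CPM, *Osm* at 0.0990 CPM, *Lif* at 0.0448 CPM and *Il6* at 0 (n = 20). The receptor chain and the transcription factor thus stood far above all 4 ligands. In cultures *Stat3* came first at 103 CPM, before *Il6st* at 62.0 CPM, *Il6ra* at 10.6 CPM, *Socs3* at 6.64 CPM, *Cish* at 4.68 CPM, *Il11* at 1.51 CPM, *Osmr* at 0.668 CPM and *Lif* at 0.260 CPM, with *Il6* and *Osm* at 0 (n = 11). Tumors and cultures were handled as separate experiments, and no test was made between them.

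**Figure D1:**
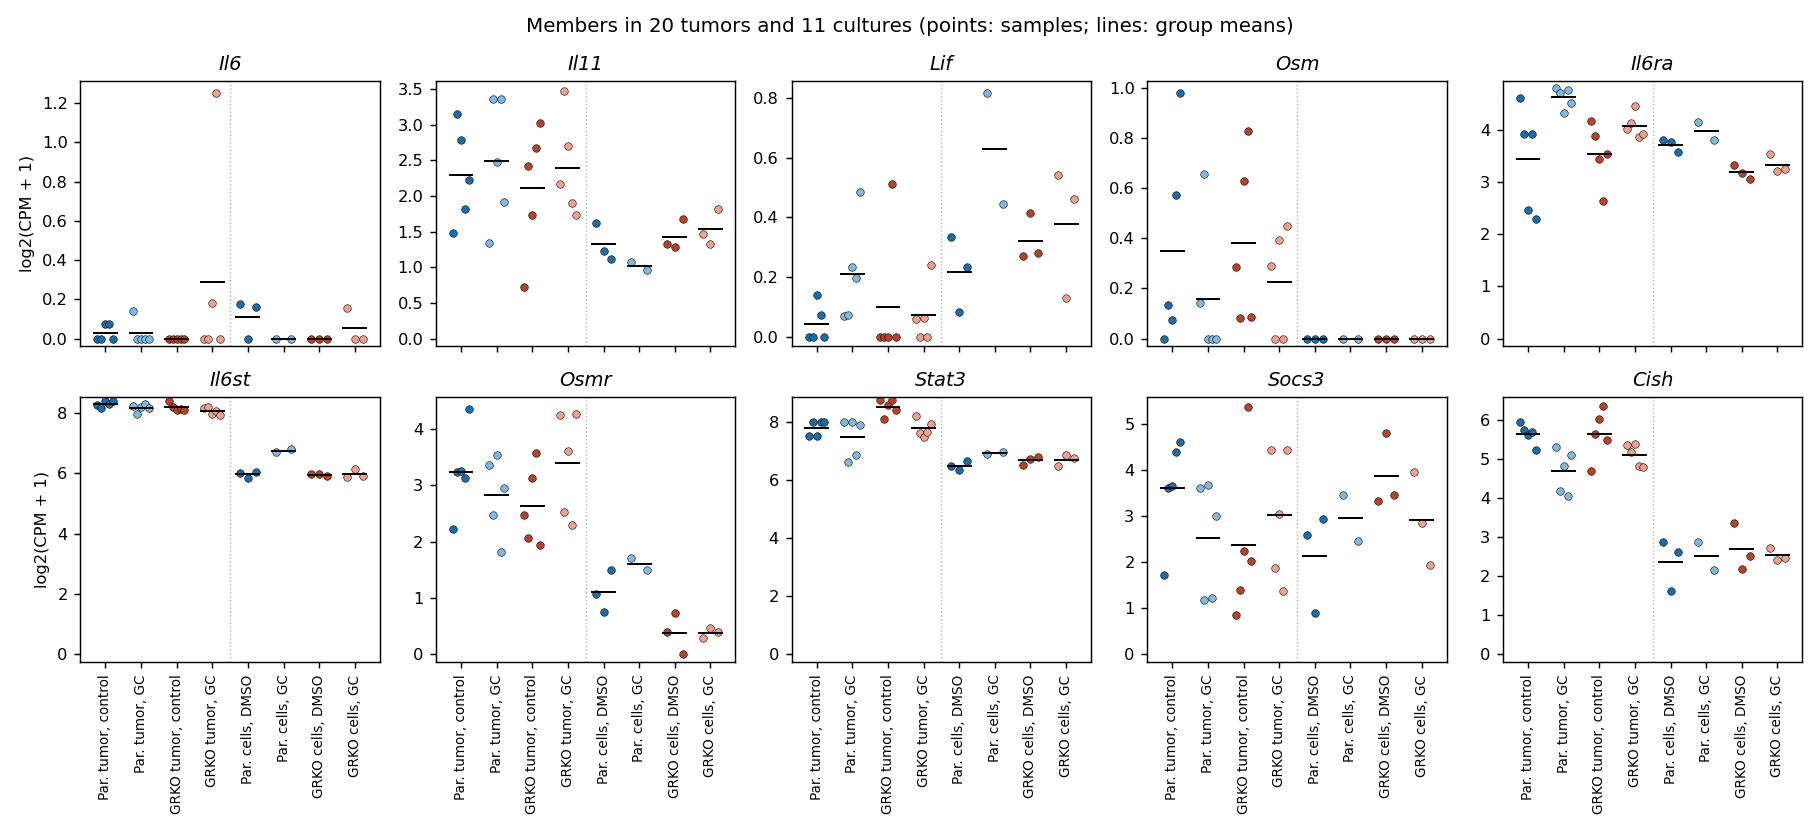
Level of each of the 10 genes as log2(CPM + 1) in every tumor (left of the dotted line) and every culture (right of it), with a point for each sample and a line for each group mean. *Il6st* stands higher in the 2 parental clobetasol cultures (103 and 111 CPM) than in the 9 other cultures, *Stat3* stands highest in GRKO control tumors, and *Socs3* spreads widely within groups.

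The first comparison is clobetasol against control in parental tumors. *Cish* was lower in 4 of 5 treated tumors than in any control tumor, at 26.4 ± 10.1 CPM against 49.5 ± 8.77 CPM, and *Il6ra* was higher, at 23.8 ± 3.40 CPM against 12.01 ± 8.08 CPM (SD, n = 5 each). Neither difference passed the test over all genes. The log2 fold change was -0.91 for *Cish* (SE 0.28, 95% interval -1.45 to -0.36, adjusted p = 0.137 from edgeR) and 0.99 for *Il6ra* (SE 0.37, 95% interval 0.25 to 1.72, adjusted p = 0.228 from edgeR). Of the 8 members tested edgeR called 0, against 124 of 15919 genes (0.779%); 2 members, *Cish* and *Il6ra*, had an unadjusted p under 0.05, and DESeq2 called 0. *Socs3* had -1.08 (SE 0.88), *Stat3* -0.23, *Il6st* -0.14, *Osmr* -0.51, *Osm* -1.23 and *Il11* 0.33, with adjusted p from edgeR of 0.620 to 0.850. Leaving out 1 tumor gave -3.38 to -0.25 for *Osm*, -0.72 to -0.068 for *Osmr*, -0.35 to -0.062 for *Stat3* and 0.052 to 0.65 for *Il11*. The members' median log2 fold change was -0.37, beside 0.0040 over all genes tested. With the number of genes detected as a covariate, edgeR called 2 members, *Socs3* (-1.91, adjusted p = 0.0426) and *Cish* (-1.07, adjusted p = 0.00620), and 3.28% of all genes. Over all alternatives the adjusted p ran from 0.0426 to 0.850 for *Socs3* and from 0.00620 to 0.369 for *Cish*.

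Neutrophil markers varied widely among the same tumors. The summed level of 8 markers was 178, 626, 836, 209 and 2130.2 CPM in parental control tumors and 166, 149, 280.2, 130.1 and 307 CPM in parental clobetasol tumors. The values of both groups overlapped, 2 of the 7 markers tested fell (*S100a8* and *S100a9*), *Mmp9* was the most abundant, and *Ly6g* had 0 counts in every sample. Summed levels were 628, 1002, 485, 318 and 1219 CPM in GRKO control tumors and 255, 120.4, 398, 375 and 216 CPM in GRKO clobetasol tumors, where edgeR called 0 of the 7, DESeq2 called 0 and 2 had an unadjusted p under 0.05. Endothelial markers, with *Kdr* the most abundant, summed to 73.5, 63.6, 52.3, 75.4 and 55.2 CPM in parental control and 41.6, 26.01, 31.7, 40.5 and 41.6 CPM in parental clobetasol tumors. Fibroblast markers, with *Col3a1* the most abundant, summed to 6908, 7704, 7109, 7637 and 7310.1 CPM in parental control and 10940.1, 8826, 11008, 8139 and 11017 CPM in parental clobetasol tumors. Both sums parted the groups without overlap, downward for endothelial and upward for fibroblast markers. Of the single genes edgeR called 0 of 7 endothelial markers (3 with an unadjusted p under 0.05, 1 called by DESeq2) and 0 of 8 fibroblast markers (4 with an unadjusted p under 0.05, 0 called by DESeq2), and 1 of 6 keratinocyte markers was called higher. The part of all these cells in the values of *Cish* and *Il6ra* was not tested.

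In GRKO tumors, clobetasol went with a lower level of *Stat3*, at 220.02 ± 47.7 CPM against 366 ± 66.6 CPM, and of *Cish*, at 34.1 ± 6.75 CPM against 52.4 ± 21.2 CPM (SD, n = 5 each). Neither passed the test. The log2 fold change of *Stat3* was -0.73 (SE 0.25, 95% interval -1.22 to -0.25, adjusted p = 0.0732 from edgeR) and that of *Cish* -0.62 (SE 0.28, adjusted p = 0.170 from edgeR). Of the 8 members tested edgeR called 0, against 1022 of 15919 genes (6.42%), and *Stat3* and *Cish*, 2 members, had an unadjusted p under 0.05. DESeq2 called 1 member, *Stat3* (-0.77, adjusted p = 0.0291 from DESeq2), and 11% of all genes, and over all alternatives the adjusted p of *Stat3* ran from 0.0291 to 0.269. *Osmr* had 0.94, *Il6ra* 0.51, *Il11* 0.28, *Socs3* 0.087 (SE 0.87), *Il6st* -0.12 and *Osm* -0.86, with adjusted p from edgeR of 0.253 to 0.966. The members' median was -0.018, beside 0.051 over all genes.

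The 3 GRKO control tumors with few genes detected weigh on this comparison. Without them edgeR called 0 members of those tested, with 68 of 15767 genes (0.431%) called in GRKO tumors. *Socs3* had a log2 fold change of -1.11 without these 3 tumors and -1.17 with genes detected as a covariate, in place of 0.087. With that covariate edgeR called 1 member, *Cish* (-1.07, adjusted p = 0.0208, from 0.0208 to 0.333 over all alternatives), and 1.37% of all genes. Leaving out GRKO control tumor 4 gave *Socs3* a log2 fold change of 2.21, and leaving out any other tumor of these groups gave -0.31 to 0.36, so the value had no settled sign. Over all alternatives the log2 fold change ran from 0.33 to 1.06 for *Il6ra*, from -1.12 to -0.40 for *Cish* and from 0.11 to 1.30 for *Osmr*.

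The difference between the clobetasol effects in parental and GRKO tumors asks whether the receptor of the tumor cells matters for the response. No member's effect was called as different. *Osmr* came nearest, with opposite signs in the genotypes and a difference of -1.44 (SE 0.71, 95% interval -2.83 to -0.06, adjusted p = 0.253 from edgeR). This rested much on 3 tumors: without the 3 GRKO control tumors of few genes detected the difference of *Osmr* was -0.72 (adjusted p = 0.807 from edgeR), and with genes detected as a covariate its effect in GRKO tumors was 0.11 in place of 0.94 (adjusted p = 0.955 from edgeR). Of the 8 members tested edgeR called 0 and DESeq2 called 0, against 31 of 15919 genes (0.195%) by edgeR, and 0 members had an unadjusted p under 0.05. The normal interval of *Osmr* leaves out 0 although the F test does not reach that p. For *Il6st* the difference was -0.013 (SE 0.20, 95% interval -0.40 to 0.38, adjusted p = 0.981 from edgeR). The interval of *Socs3* is wide (-1.16, SE 1.23), and its difference ran from -3.27 without GRKO control tumor 4 (adjusted p = 0.0542 from edgeR) to 0.056 without the 3 GRKO control tumors. *Stat3* had 0.50, *Il6ra* 0.48 and *Cish* -0.29, and the members' median was -0.15 beside -0.039 over all genes. Without the 3 GRKO control tumors edgeR called 0 members and 0 of 15767 genes (0%).

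Between GRKO and parental control tumors, *Stat3* was higher in GRKO tumors, and the 5 values of each group did not overlap, as in 3.92% of all genes tested. Its log2 difference was 0.71 (SE 0.25, 95% interval 0.22 to 1.19), which did not pass the test over all genes (adjusted p = 0.118 from edgeR). Of the 8 members tested edgeR called 0 and DESeq2 called 0, against 358 of 15919 genes (2.25%) by edgeR, and *Stat3* was the 1 member with an unadjusted p under 0.05. *Osmr* had -0.71 (-0.010 without the 3 GRKO control tumors), *Socs3* -0.46, *Il6st* -0.12, *Il6ra* -0.087 and *Cish* 0.084, and the members' median was -0.10 beside -0.043 over all genes. *Socs3* rested on 1 tumor: without GRKO control tumor 4, which had 40.0 CPM, its difference was -2.57 and was called (adjusted p = 0.0421 from edgeR, from 0.0421 to 0.944 over all alternatives). Without GRKO control tumors 1, 2 and 5 it was 0.72, and edgeR then called 0 members and 23 of 15767 genes (0.146%).

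Markers of other cells parted the same control tumors. Macrophage markers, with *C1qa* the most abundant, summed to 9136, 7937, 5705, 6546 and 6519 CPM in GRKO and 5268, 5311, 4194, 4753 and 3785 CPM in parental control tumors. Endothelial markers summed to 106, 103, 118, 113 and 101 CPM in GRKO control tumors, also above every parental control tumor. Fibroblast markers lay below every parental control tumor, at 4026, 4386, 4821, 6896 and 5474 CPM. Keratinocyte markers summed to 4164, 4768, 3736, 2198 and 2710.2 CPM in GRKO and 1541, 1498, 1852, 1516 and 3694 CPM in parental control tumors, which overlapped. Of the single genes edgeR called 1 of 7 endothelial markers higher, 1 of 8 fibroblast and 1 of 6 keratinocyte markers lower (3 of the 6 had a log2 fold change above 0), and 0 of 8 macrophage markers, of which 2 had an unadjusted p under 0.05 and DESeq2 called 2. Without GRKO control tumors 1, 2 and 5 edgeR called none of these markers. The part of these cells in the values of *Stat3* was not tested.

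Between GRKO and parental clobetasol tumors the members did not part the groups. *Il6ra* was lower in GRKO tumors, at 16.0 ± 2.98 CPM against 23.8 ± 3.40 CPM, a log2 difference of -0.57 (SE 0.37, adjusted p = 0.579 from edgeR). *Osmr* had 0.73, *Socs3* 0.70, *Cish* 0.37 and *Stat3* 0.21, where edgeR's adjusted p was never under 0.579. Of the 8 members tested edgeR called 0 and DESeq2 called 0, against 101 of 15919 genes (0.634%) by edgeR, and 0 members had an unadjusted p under 0.05. The members' median was 0.29 beside 0.0099 over all genes.

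In cultures, the first comparison is clobetasol against DMSO in parental cells. *Il6st* rose in parental cells, to 107 ± 5.57 CPM (SD, n = 2) with the drug against 62.0 ± 4.10 CPM without it (SD, n = 3), a 1.72-fold change. Both treated cultures lay above all 3 DMSO cultures, but these groups did not overlap in 27.8% of all genes tested. The log2 fold change of *Il6st* was 0.79 (SE 0.13, 95% interval 0.53 to 1.04, adjusted p = 0.0138 from edgeR). *Stat3* was also higher in both treated cultures, and in 4 of the 7 members tested the groups did not overlap. The log2 fold change of *Stat3*, 0.44 (SE 0.15), did not pass (adjusted p = 0.360 from edgeR). Of the 7 members tested edgeR called 1 and DESeq2 called 1, *Il6st* with both, against 110 of 12525 genes (0.878%) by edgeR. *Socs3* had 0.77 (SE 0.80), *Osmr* 0.76, *Il6ra* 0.28 and *Il11* -0.58, where edgeR's adjusted p was never under 0.701. The members' median was 0.44 beside -0.00052 over all genes.

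The size of the *Il6st* change was steady and its call was not. Over 12 other fits the log2 fold change stayed between 0.73 and 0.84, with adjusted p from 1.42e-05 to 0.185, and 5 of the 12 did not call it. These were the fits without parental DMSO culture 1 (0.79, adjusted p = 0.0582 from edgeR), without parental clobetasol culture 1 (0.84, adjusted p = 0.0978 from edgeR), without parental clobetasol culture 2 (0.73, adjusted p = 0.185 from edgeR), of these 2 groups alone (0.79, adjusted p = 0.0954 from edgeR) and with the replicate number as a block (0.78, adjusted p = 0.0635 from edgeR). A minimum fold change of 2, which the 1.72-fold change does not reach, also ends the call.

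In GRKO cells clobetasol changed no gene by the test. *Il6st* had a log2 fold change of 0.040 (SE 0.12, 95% interval -0.19 to 0.27, adjusted p = 0.981 from edgeR), an interval that ends below the change in parental cells. Of the 7 members tested edgeR called 0 and DESeq2 called 0, and 0 members had an unadjusted p under 0.05. Of all 12525 genes edgeR called 0 (0%) and DESeq2 called 0, and 237 had an unadjusted p under 0.05. *Stat3* had 0.031 and *Socs3* -0.97 (SE 0.71), and the members' median was 0.031 beside 0.019 over all genes.

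The test of the difference between these effects is the one that compares the genotypes. The effect on *Il6st* was higher in parental cells by 0.75 (SE 0.17, 95% interval 0.41 to 1.09), which did not pass over all genes in edgeR (adjusted p = 0.176 from edgeR) and was called by DESeq2 (0.75, adjusted p = 0.0175 from DESeq2). Over all alternatives the adjusted p ran from 0.0175 to 0.519. Of the 7 members tested edgeR called 0, against 37 of 12525 genes (0.295%), and *Il6st* was the 1 member with an unadjusted p under 0.05. DESeq2 called 1 member and 1.02% of all genes. *Socs3* had a difference of 1.74 (SE 1.07) and *Stat3* 0.41, neither past the threshold, and the members' median was 0.41 beside -0.027 over all genes.

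GRKO and parental cells also differed before any drug. *Il6ra* was lower in GRKO cells, at 8.12 ± 0.841 CPM against 12.2 ± 1.13 CPM, *Osmr* was lower, at 0.326 ± 0.334 CPM against 1.20 ± 0.578 CPM, and *Socs3* was higher, at 15.3 ± 10.0 CPM against 4.17 ± 2.98 CPM (SD, n = 3 each). In each of the 3 genes the groups did not overlap, which held for 3 of the 7 members tested and for 32.6% of all genes tested, and none passed the test. For *Osmr* the nearest values were 0.668 CPM (14 counts) in GRKO and 0.677 CPM (11 counts) in parental cells. The log2 differences were -0.58 for *Il6ra* (adjusted p = 0.0890 from edgeR), -1.84 for *Osmr* (SE 0.82, adjusted p = 0.199 from edgeR) and 1.87 for *Socs3* (SE 0.73, 95% interval 0.44 to 3.31, adjusted p = 0.143 from edgeR). Of the 7 members tested edgeR called 0, against 1030 of 12525 genes (8.22%), and these 3 members had an unadjusted p under 0.05. DESeq2 called 1 member, *Il6ra* (-0.59, adjusted p = 0.0455 from DESeq2), and 11.4% of all genes. *Socs3* was called by edgeR without the filter on low counts (1.89, adjusted p = 0.0424, with 6.29% of genes called) and with genes detected as a covariate (2.63, adjusted p = 0.000216, with 21.1% called). Its adjusted p ran from 0.000216 to 0.480 and that of *Il6ra* from 0.0443 to 0.235 over all alternatives. *Il6st* differed by -0.018 (SE 0.12), and the members' median was 0.16 beside 0.014 over all genes.

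Fibroblast markers parted the same cultures. Their summed level was 373, 298 and 339.8 CPM in parental DMSO cultures, 239.6 and 239 CPM in parental clobetasol cultures, 80.3, 87.0 and 72.7 CPM in GRKO DMSO cultures and 87.3, 65.3 and 66.2 CPM in GRKO clobetasol cultures, with *Col3a1* the most abundant. With DMSO 4 of the 6 tested were called lower in GRKO cells, as was *Mitf*, the 1 melanocyte marker tested. Their part in the members' values was not tested.

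Other genes of the pathway were described by lists. The remaining ligands of the family and its relatives had 5 of 8 tested in tumors and 3 in cultures, the remaining receptor chains 4 of 5 and 2, JAK kinases with other STATs 7 of 7 in both, and the remaining inhibitors 12 of 12 in both. Of these genes edgeR called 0 in parental tumors under clobetasol, where 1, 1, 2 and 6 had an unadjusted p under 0.05, DESeq2 called 1 of the inhibitors, and the lists' medians were -0.12, 0.62, -0.40 and 0.18. In parental cells edgeR again called 0, 2 inhibitors had an unadjusted p under 0.05, DESeq2 called 1 of them, and the medians were 0.41, 0.13, -0.057 and 0.042. In GRKO tumors edgeR called 0 of the ligands, receptor chains and kinases, where 1, 0 and 1 had an unadjusted p under 0.05 and DESeq2 called 1 kinase or STAT. The inhibitors gave 1 higher and 1 lower gene of 12, beside 6.42% of all genes called. *Ptpn11*, a phosphatase also called SHP2, rose by 0.89 (adjusted p = 0.0258 from edgeR), and *Ptpn1*, a phosphatase that acts on JAKs, changed by -0.79 (adjusted p = 0.0338 from edgeR). The call of *Ptpn11* was lost without GRKO control tumor 3 (0.83) and without GRKO clobetasol tumor 3 (0.85) or 5 (0.84), with adjusted p up to 0.0717 from edgeR. That of *Ptpn1* was lost without GRKO control tumor 1 (-0.68) or 2 (-0.65) and without GRKO clobetasol tumor 1 (-0.79), 3 (-0.69) or 5 (-0.69), with adjusted p up to 0.105 from edgeR. Without the 3 GRKO control tumors neither was called, and their sizes went opposite ways: *Ptpn11* had 1.18 (adjusted p = 0.1 from edgeR) and *Ptpn1* -0.43 (adjusted p = 0.505 from edgeR). With the 2 groups fitted alone neither was called (0.89 and -0.78), nor was *Ptpn1* with genes detected as a covariate (-0.45, adjusted p = 0.315 from edgeR). *Ptpn1* was also higher in GRKO than in parental control tumors, at 698 against 353 CPM (0.98, adjusted p = 0.0269 from edgeR), a call lost without parental control tumor 3 (0.91) or 4 (0.99), without GRKO control tumor 1 (0.87) or 2 (0.85), without those 3 (0.62) and with the covariate (0.59).

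The list of STAT3 target genes held 16 genes, all tested in tumors, and 14 were tested in cultures. In parental tumors under clobetasol 8 of 16 had an unadjusted p under 0.05, DESeq2 called 3, and the median was -0.16. By edgeR 1 of 16 rose, beside 0.779% of all genes called. That gene was *Cebpd*, a transcription factor that responds to both cytokines and glucocorticoids, which went from 72.7 to 230.4 CPM, a log2 fold change of 1.66 (SE 0.28, adjusted p = 0.00355 from edgeR), with 0 of 10 calls lost when 1 tumor was left out. *Cebpd* was lower in GRKO than in parental clobetasol tumors, at 72.7 against 230.4 CPM (-1.66, adjusted p = 0.00479 from edgeR, 0 of 10 calls lost). The difference between its clobetasol effects, 0.97 (SE 0.39), did not pass (adjusted p = 0.174 from edgeR). In parental cells 1 of 14 rose, again *Cebpd*, from 25.5 to 59.8 CPM (1.23, adjusted p = 0.0222 from edgeR), but the call was lost without any 1 of the 5 parental cultures (1.13 to 1.30, adjusted p up to 0.257 from edgeR) and with the replicate number as a block (1.18, adjusted p = 0.0800 from edgeR), and in GRKO cells it had -0.02. Its effects there differed by 1.25 (adjusted p = 0.178 from edgeR). Of the 14 target genes, 3 had an unadjusted p under 0.05 in parental cells and DESeq2 called 3, beside 0.878% of all genes called by edgeR.

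In GRKO tumors 1 of the 16 target genes rose and 2 fell, beside 6.42% of all genes called, with a median of -0.050. *Timp1*, an inhibitor of matrix proteases, fell from 590.4 to 298 CPM (-0.99, adjusted p = 0.00797 from edgeR, 0 of 10 calls lost), and *Vegfa*, a growth factor for vessels, rose by 1.70 (adjusted p = 0.0338 from edgeR). The call of *Vegfa* was lost without GRKO control tumor 1, 2, 3 or 5 and without GRKO clobetasol tumor 1, 3 or 5 (1.43 to 1.62, adjusted p up to 0.108 from edgeR), and without GRKO control tumor 4 its log2 fold change was 2.66. Without the 3 GRKO control tumors *Timp1* had -1.13 and was not called (adjusted p = 0.0577 from edgeR), and *Vegfa* had 0.84 and was not called (adjusted p = 0.521 from edgeR). *Vegfa* was not called either with genes detected as a covariate (1.04, adjusted p = 0.189 from edgeR) or with the 2 groups fitted alone (1.69, adjusted p = 0.113 from edgeR). The second gene to fall was *Icam1*, an adhesion molecule named here after its values were seen (-0.84, adjusted p = 0.0373 from edgeR). Its call was lost without GRKO control tumor 2, 3 or 4 and without any 1 of the 5 GRKO clobetasol tumors (-0.91 to -0.64, adjusted p up to 0.0917 from edgeR), with the 2 groups fitted alone (-0.84, adjusted p = 0.0964 from edgeR) and with the replicate number as a block (-0.80, adjusted p = 0.0545 from edgeR), and was kept without the 3 GRKO control tumors (-1.35). In GRKO against parental DMSO cells 3 of 14 were lower, beside 757 lower of 12525 genes and 8.22% called either way. *Cebpb*, a transcription factor of inflammatory genes, had 6.97 against 15.7 CPM (-1.17, adjusted p = 0.00608 from edgeR, 0 of 6 calls lost) and *Cebpd* -0.95 (adjusted p = 0.0126 from edgeR), a call lost without GRKO DMSO culture 1 (-0.90, adjusted p = 0.0594 from edgeR) or 3 (-0.85, adjusted p = 0.0567 from edgeR). *Bcl3* had 0 to 1 counts in GRKO and 8 to 13 in parental cultures (adjusted p = 0.0332 from edgeR), and its call was lost in all 4 fits without 1 culture in which it could be tested, those without parental DMSO culture 2 or any 1 of the GRKO DMSO cultures (adjusted p from 0.0563 to 0.128 from edgeR).

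Acute-phase genes, known targets of IL-6 family signals in liver, had 11 of 14 tested in tumors and 2 in cultures. In parental tumors 1 rose, with a median of 0.64: *Cp*, which encodes ceruloplasmin, went from 30.8 to 77.5 CPM (1.33, adjusted p = 0.0197 from edgeR). Its call was lost without parental control tumor 3 (1.14, adjusted p = 0.0515 from edgeR), without parental control tumor 5 (1.25, adjusted p = 0.0741 from edgeR) and without parental clobetasol tumor 4 (1.24, adjusted p = 0.0664 from edgeR). *Cp* was also lower in GRKO than in parental clobetasol tumors, at 22.8 against 77.5 CPM (-1.77, adjusted p = 0.00275 from edgeR, 0 of 10 calls lost). The difference between its clobetasol effects was 1.01 (SE 0.39, adjusted p = 0.164 from edgeR). In GRKO tumors *Serpina3n* rose (1.40, adjusted p = 0.0169 from edgeR), except without GRKO clobetasol tumor 3 (1.31, adjusted p = 0.0592 from edgeR), and *Lrg1* fell (-0.89, adjusted p = 0.0180 from edgeR), except without GRKO control tumor 1 (-0.78) or 2 (-0.80) and GRKO clobetasol tumor 3 (-0.76) or 5 (-0.81). Neither was called without the 3 GRKO control tumors (0.72 and -0.67) or with the 2 groups fitted alone (1.39 and -0.88), and *Lrg1* not with genes detected as a covariate (-0.69). *Lrg1* was the 1 gene of these lists whose effect edgeR called different between the genotypes in tumors (1.52, adjusted p = 0.0375 from edgeR), where DESeq2 called 3 of the STAT3 targets, 1 of the inhibitors and 1 acute-phase gene. It was a call lost in 12 of 20 fits that left out 1 tumor. These were the fits without parental control tumor 1, 3, 4 or 5, parental clobetasol tumor 2, 4 or 5, GRKO control tumor 1 or 2, or GRKO clobetasol tumor 1, 3 or 5 (1.40 to 1.56, adjusted p up to 0.0948 from edgeR). It was also lost without the 3 GRKO control tumors (1.30, adjusted p = 0.319 from edgeR) and with the covariate (1.34, adjusted p = 0.0760 from edgeR).

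In DMSO cultures both acute-phase genes tested were lower in GRKO cells. *Cp* had 1.44 against 28.3 CPM (-4.29, adjusted p = 2.34e-05 from edgeR, 0 of 6 calls lost). *Hp*, which encodes haptoglobin, had 0 counts in the 3 GRKO cultures and 5 to 17 in parental cultures, at least 4.39-fold lower against a floor of 3 counts per library (adjusted p = 0.0106 from edgeR, 0 of 6 calls lost). In parental cells with clobetasol edgeR called 0 of these 2 genes, both had an unadjusted p under 0.05, and DESeq2 called 2. *Cp* had 61.6 against 28.3 CPM (1.12, adjusted p = 0.188 from edgeR) and *Hp* 5.12 against 0.708 CPM (2.84, adjusted p = 0.162 from edgeR). Among the remaining inhibitors, *Socs5* was lower in GRKO cells (-0.71, adjusted p = 0.0272 from edgeR), a call lost without any 1 culture other than parental DMSO culture 3 (-0.76 to -0.61, adjusted p up to 0.116 from edgeR).

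Genes known to respond to glucocorticoids were the reference for the drug's action. In parental tumors 4 of the 6 tested rose, with a median of 1.85, among them *Sgk1* (1.27, adjusted p = 0.00355 from edgeR) and *Klf9* (1.51, adjusted p = 0.00824 from edgeR). In GRKO tumors 4 of 6 rose, with a median of 1.30, and *Klf9* had 1.25. *Fkbp5*, at 2.03 among these 4, was lower in GRKO than in parental control tumors, at 25.2 against 71.2 CPM (-1.50, adjusted p = 0.0296 from edgeR). That call between control tumors was lost in 10 of 18 alternatives. Without the 3 GRKO control tumors of few genes detected none of these 4 was called by edgeR: *Tsc22d3* had 1.44 and *Per1* 1.40 (adjusted p = 0.0740 for each), *Klf9* 1.31 (adjusted p = 0.157) and *Fkbp5* 1.53 (adjusted p = 0.184). With genes detected as a covariate the call of *Klf9* was lost (1.34, adjusted p = 0.0682 from edgeR). In parental cells 5 of 5 rose, with a median of 2.33, among them *Sgk1* (1.46, adjusted p = 0.000230 from edgeR) and *Klf9* (1.91, adjusted p = 0.00888 from edgeR, lost without parental clobetasol culture 1 at 1.72, adjusted p = 0.111 from edgeR). *Fkbp5* was also among them (2.33, adjusted p = 0.0248 from edgeR), but its call was lost without parental DMSO culture 2 (2.00) or 3 (2.41), without parental clobetasol culture 1 (2.04) or 2 (2.57), with adjusted p up to 0.279 from edgeR, with the 2 groups fitted alone (adjusted p = 0.0614 from edgeR) and with the replicate number as a block (2.19, adjusted p = 0.0653 from edgeR). In GRKO cells edgeR and DESeq2 called 0 of 5 and 0 had an unadjusted p under 0.05, with a median of -0.23. The cell effects differed for 3 of 5, *Sgk1* among them (1.30, adjusted p = 0.00927 from edgeR), a call lost without parental DMSO culture 1 (1.26), parental clobetasol culture 1 (1.32) or 2 (1.28). *Per1* was lower in GRKO than in parental clobetasol tumors (-1.24, adjusted p = 0.0242 from edgeR), except without parental clobetasol tumor 3 or 5 or GRKO clobetasol tumor 1, 2, 3 or 5 (-1.29 to -1.14, adjusted p up to 0.0845 from edgeR). Of the genes that induce or restrain *Il6* through interleukin-1 and TNF, 2 of 3 tested fell in parental and 2 of 3 in GRKO tumors, *Il1b* and *Tnf* in both, and both were also called in GRKO tumors without GRKO control tumors 1, 2 and 5. *Il1rn*, which encodes the interleukin-1 receptor antagonist, had 0 counts in GRKO DMSO cultures and 7 to 32 in parental ones, at least 6.52-fold lower against the floor of 3 counts per library (adjusted p = 0.0204 from edgeR), a call lost without parental DMSO culture 1 (adjusted p = 0.0520 from edgeR) and without GRKO DMSO culture 1 (adjusted p = 0.0567 from edgeR) or 2 (adjusted p = 0.0595 from edgeR).

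Other cells of the tumors also differed in GRKO tumors under clobetasol, where edgeR called 6.42% of all genes tested. T cell markers summed to 136, 153, 123, 206 and 109 CPM in GRKO control and 68.2, 98.9, 79.8, 50.5 and 46.5 CPM in GRKO clobetasol tumors, groups that did not overlap, with 2 of 8 called lower and *Cd3d* the most abundant. Fibroblast markers summed to 4026, 4386, 4821, 6896 and 5474 CPM in GRKO control and 10241, 8438, 11612, 7574 and 11248 CPM in GRKO clobetasol tumors, with 4 of 8 called higher and *Col3a1* the most abundant. Endothelial markers, led by *Kdr*, summed to 101 to 118 CPM in GRKO control and 51.5 to 62.7 CPM in GRKO clobetasol tumors, with 1 of 7 called lower. Keratinocyte markers, led by *Krt14*, summed to 2198 to 4768 CPM and 1169 to 2058 CPM, with 2 higher and 2 lower of 6. Neither pair of groups overlapped. Of macrophage markers, led by *C1qa*, 1 of 8 was called higher, and 4 of 8 had a log2 fold change above 0. Their sums overlapped, at 5705 to 9136 CPM in GRKO control and 4539 to 7752 CPM in GRKO clobetasol tumors, with means of 7169 and 5396 CPM. Of muscle markers, led by *Acta1*, 1 of 5 was called lower. Without GRKO control tumors 1, 2 and 5 edgeR called 0 markers of any of these cells, with 5 of 8 T cell, 3 of 8 fibroblast, 2 of 7 endothelial and 4 of 6 keratinocyte markers at an unadjusted p under 0.05. The part of these cells in the values of *Stat3* and *Cish* was not tested.

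Relations over the 20 tumors were computed on deviations from group means of log2(CPM + 1), with two-sided permutation tests within groups. Of 6 relations none passed after adjustment over the 6. *Socs3* varied with *Lif* at r = 0.64 (permutation p = 0.0186, adjusted 0.112), Spearman's rho 0.57 (permutation p = 0.0142, adjusted 0.0852), and r was 0.44 without the 2 tumors farthest from the median. With *Osm* it had r = 0.50 (permutation p = 0.0385, adjusted 0.115), rho 0.47 (permutation p = 0.0429, adjusted 0.129), and r = 0.27 without 2 tumors. With the parental clobetasol group left out, the adjusted permutation p was 0.0297 for *Lif* (r = 0.78) and 0.00636 for *Osm* (r = 0.74). Under the other alternatives neither passed. *Socs3* had r = -0.30 and rho -0.14 with *Il6* (permutation p = 0.268, adjusted p of rho 0.972), and r = -0.07 and rho -0.09 with *Il11* (permutation p = 0.811, adjusted p of rho 0.972). *Osm* had r = 0.23 and rho -0.04 with neutrophil markers (permutation p = 0.49, adjusted p of rho 0.972), and r = 0.04 and rho 0.01 with macrophage markers (permutation p = 0.860, adjusted p of rho 0.972). *Lif* and *Osm*, with few counts, give such relations little weight. *Socs3* (r = 0.85) and, not past the threshold, *Osm* (r = 0.36) also had positive r with the number of genes detected. The part of that number in these relations was not tested.

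Of 8 members tested 3 varied with how many genes a tumor's library detected, in relations chosen after the data were seen, 8 in all. *Socs3* had r = 0.85 (permutation p = 0.00016, adjusted 0.00128) and rho 0.80 (permutation p = 0.00021, adjusted 0.00168), *Cish* had r = 0.77 (permutation p = 0.00103, adjusted 0.00412) and rho 0.65 (permutation p = 0.00391, adjusted 0.0131), and *Osmr* had r = 0.64 (permutation p = 0.00306, adjusted 0.00816) and rho 0.66 (permutation p = 0.00491, adjusted 0.0131). Within groups, tumors with more genes detected had more of these 3 transcripts. An r at least as large in size was found for 0.911% of the 15919 genes tested in the case of *Socs3*, 4.35% in that of *Cish* and 15.6% in that of *Osmr*, so many genes beyond the pathway share this trait. Without the 2 tumors farthest from the median of genes detected, r was 0.87, 0.64 and 0.69. *Stat3* had r = 0.44 and rho 0.45 (permutation p = 0.0360, adjusted 0.0720, for r, and r = 0.65 without the same 2 tumors), *Osm* r = 0.36, *Il6st* r = -0.36, *Il6ra* r = -0.29 and *Il11* r = 0.08, none past the threshold. What sets the number of genes detected was not tested.

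**Figure D2:**
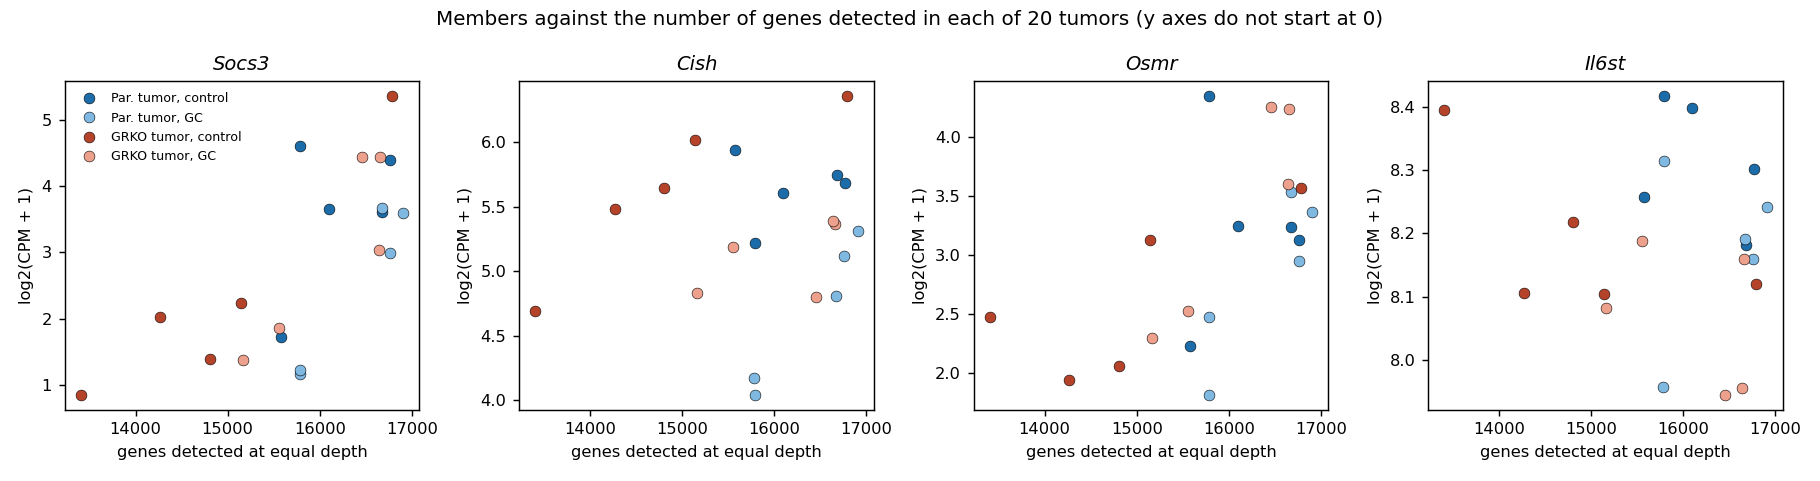
Level of *Socs3*, *Cish*, *Osmr* and *Il6st* as log2(CPM + 1) against the number of genes detected after thinning every tumor to 15528066 reads, with a point for each of the 20 tumors, coloured by group; the vertical axes do not start at 0. *Socs3* climbs with genes detected within groups (r = 0.85) and *Il6st* does not (r = -0.36).

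The genes most like *Socs3* over the 20 tumors, by Pearson's r of log2(CPM + 1) among 15918 other genes tested, were *Arpc1a* (0.940), *RP23-103I12.13* (0.939), *Fabp4* (0.937), *Ssr3* (0.937) and *Mrpl39* (0.937). Without GRKO control tumor 4 these values lay between 0.923 and 0.946. For *Il6* they were *5430427M07Rik* (0.843), *Gm13373* (0.817), *Phkg1* (0.810), *Srcrb4d* (0.792) and *Gm23604* (0.791), and without GRKO clobetasol tumor 4 they fell to between -0.169 and 0.339, so the likeness to *Il6* rests on that tumor.

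On the assembly GRCm38 the members lie on 7 chromosomes, with 4 of them on chromosome 11. *Lif* (4257557 to 4272514) and *Osm* (4236420 to 4241026) are neighbours there on the plus strand, and *Stat3* (ENSMUSG00000004040, 100885098 to 100939540) and *Socs3* (ENSMUSG00000053113, 117966079 to 117970047) lie on its minus strand. *Il6st* (ENSMUSG00000021756) lies on chromosome 13 from 112464070 to 112510086, plus strand, *Cish* (ENSMUSG00000032578) on chromosome 9 from 107296026 to 107302784, plus strand, and *Il6ra* (ENSMUSG00000027947) on chromosome 3 from 89864059 to 89913196, minus strand.

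Promoters were read from RefSeq (GRCm38.p6), which held 10 promoters for 9 of the 10 members and none for *Osm*. The 250 bases before each start were searched on both strands for TTCNNNGAA, the core of STAT binding motifs, and ACANNNTGT, the core of glucocorticoid receptor motifs. Both patterns read the same on either strand, and one can overlap the other only in part. Of 32851 promoters 7.02% hold the first and 5.84% the second. Among the members 1, *Socs3*, held TTCNNNGAA, and 0 held ACANNNTGT, in these 250 bases. The windows of *Osmr* and *Cish* lie wholly inside an annotated exon, and those of *Socs3*, *Lif* and 1 of *Il11* partly, so they are not all sequence before a gene. The window of *Socs3* and the other of *Il11* also lie inside the annotated span of their gene. A match is a description of letters and not of binding. The sequences of *Socs3*, the feedback gene, and of *Il6st*, the member that rose in cells, are shown 5′ to 3′, with the match in capitals. That of *Socs3* is chr11:117969452-117969616 on the minus strand, 165 bases that end where an annotated exon starts. The annotated gene reaches 117970047, so these 165 bases and the match lie inside its span and not before it. That of *Il6st* is chr13:112463820-112464069 on the plus strand, 250 bases.
*Socs3*: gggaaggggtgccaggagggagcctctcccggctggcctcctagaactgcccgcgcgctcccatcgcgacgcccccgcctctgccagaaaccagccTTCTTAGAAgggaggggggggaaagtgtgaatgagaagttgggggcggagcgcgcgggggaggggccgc
*Il6st*: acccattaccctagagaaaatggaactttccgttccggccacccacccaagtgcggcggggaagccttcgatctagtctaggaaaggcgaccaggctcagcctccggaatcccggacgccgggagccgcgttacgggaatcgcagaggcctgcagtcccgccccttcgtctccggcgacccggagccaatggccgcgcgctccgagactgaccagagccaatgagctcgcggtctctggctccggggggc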

How the data were processed

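RNA of 20 tumors and 11 cultures was sequenced with the QuantSeq kit for 3′ ends. Values are integer read counts per gene, without normalization, as the authors deposited them after alignment to GRCm38 and counting with featureCounts on Ensembl release 75. The strand setting of the counting is not named, and the study states defaults for settings it does not specify. The members and gene lists were chosen with earlier results of these data known.

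Tumors and cultures were fitted apart, each over its 4 groups. Genes with at least 0.5 CPM in at least 3 samples were tested with edgeR 4.0.16 (TMM factors, quasi-likelihood F test) under R 4.3.3, with Benjamini-Hochberg adjustment over all genes tested in each of 9 comparisons. A call needs an adjusted p under 0.05 and a fold change of at least 1.5. Intervals are 95% normal intervals from the standard error. They are narrower than the F test implies, so one can leave out 0 without an unadjusted p under 0.05. Levels are TMM-scaled CPM. Relations used 100000 permutation draws within groups (SciPy 1.17.1, NumPy 2.4.6, pandas 2.3.3, Python 3.11.15), and figures used matplotlib 3.10.9. The steps were tested on simulated data.

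The genes named are the 10 members, each list gene called in a comparison (at most the 12 with the smallest p), the 5 genes most like *Socs3* and *Il6*, and the most abundant gene of each marker list; the defining markers at 0 and the neutrophil markers called are named besides. Some genes that meet the rule are left out of the text. Samples of the same replicate number were little alike on average (mean correlation of deviations 0.0583 over 30 pairs in tumors and 0.0198 over 15 pairs in cultures). Single pairs ran from -0.54 to 0.41 in tumors and from -0.55 to 0.62 in cultures, and a mean near 0 does not exclude pairing. Replicate numbers were used as a block only among the alternatives. The alternatives were DESeq2 1.42.0, its size factors in edgeR, no filter on low counts, at least 10 counts in every sample, a minimum fold change of 2 or none, the compared groups alone, the block, genes detected at equal depth as a covariate, a pseudocount of 0.1 in place of 1 for relations, leaving out each sample or tumor group, and, chosen after the data were seen, leaving out 3 GRKO control tumors. Replicates differed by more than sampling noise, with a chi-square per gene of 27.7 to 403 in tumors and 8.28 to 119 in cultures. Genes annotated in GENCODE M21 gave positions.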

Additional observations from a re-analysis of the deposited data

Results flagged for a closer look

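In groups of 5 tumors, 6 of the 39 values by group that could be tested held a sample far from the other 4, in 4 members. Chance gives about 1 in 20 for measured values, a rate that does not apply to *Il6*, *Lif* and *Osm*, whose groups lie at or near 0 counts: where 4 tumors are at 0, any count in the fifth stands apart by construction. *Il6* stood at 0.102 CPM (2 counts) in parental clobetasol tumor 1, with 0 in the others of its group. *Il6* stood at 1.38 CPM (26 counts) in GRKO clobetasol tumor 4, with 0 to 0.135 CPM in the others. *Lif* stood at 0.425 CPM (11 counts) in GRKO control tumor 4, with 0 in the others. *Lif* stood at 0.182 CPM (4 counts) in GRKO clobetasol tumor 5, with 0 to 0.0449 CPM in the others. *Osm* stood at 0.576 CPM (11 counts) in parental clobetasol tumor 2, with 0 to 0.102 CPM in the others. *Socs3* stood at 40.0 CPM (1035 counts) in GRKO control tumor 4, with 0.806 to 3.69 CPM in the others, and this tumor also had the most genes detected of its group (16787).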

How the results depend on the processing

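Over the alternatives other than leaving out 1 sample, members' fold changes kept direction and side of the threshold in 460 cases, reversed in 14, gained a call in 8 and lost one in 2. All 75 reversals, in 26 results and leaving out 1 sample included, were of values not called on either side. Their cause was not tested, and most are of values near 0 or of genes with few counts.

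The number of members called was 1 in place of 0 with DESeq2 in GRKO tumors under clobetasol, in the difference of effects in cells and in GRKO against parental DMSO cells, where it was 1 also without the filter and with the covariate. With the covariate it was 2 in parental and 1 in GRKO tumors under clobetasol. In parental cells it was 0 in place of 1 at a minimum fold change of 2, with the 2 groups alone and with the replicate block. Leaving out 1 sample gave 0 to 1 in parental cells and in GRKO against parental control tumors, and 0 to 0 in the other tumor comparisons. Where 1 parental clobetasol culture is left out, the lone other is assumed to vary like the other groups.

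In the tumor difference of effects, *Il6st* was 0.022 with DESeq2 and 0.022 with its size factors, *Osm* 0.29 with the covariate, and *Il11* -0.12 with the replicate block. The replicate block gave *Il6ra* 0.015 in GRKO against parental control tumors. With the covariate *Socs3* was -1.17 in GRKO tumors under clobetasol and 0.41 in GRKO against parental control tumors, and *Osmr* 0.44 in GRKO cells. Without the 3 GRKO control tumors *Socs3* was -1.11, 0.72 and, in the tumor difference, 0.056, where *Cish* was 0.22, *Il6ra* -0.085 and *Osm* 0.59.

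Leaving out 1 sample, the tumor difference was -0.26 to 0.51 for *Il11*, -2.52 to 0.61 for *Osm* and -0.068 to 0.038 for *Il6st*. GRKO against parental control tumors gave -0.45 to 0.20 for *Il11*, -0.55 to 1.04 for *Osm*, -0.32 to 0.30 for *Il6ra* and -0.13 to 0.26 for *Cish*, and clobetasol tumors -0.64 to 0.093 for *Il11*. Clobetasol in GRKO tumors gave -0.18 to 0.59 for *Il11* and -0.31 to 2.21 for *Socs3*. In parental cells *Cish* was -0.38 to 0.47. The cell difference was -0.067 to 0.29 for *Il6ra*, -0.19 to 1.41 for *Osmr* and -0.12 to 0.74 for *Cish*. DMSO cells gave -0.063 to 0.43 for *Il11*, -0.062 to 0.012 for *Il6st* and -0.13 to 0.69 for *Cish*. GRKO cells gave -0.078 to 0.39 for *Il11*, -0.051 to 0.094 for *Il6st*, -0.66 to 0.94 for *Osmr*, -0.045 to 0.13 for *Stat3* and -0.52 to 0.23 for *Cish*.

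Among relations, leaving out a tumor group gave r of -0.18 for *Osm* with macrophage markers (without GRKO control), -0.18 with neutrophil markers (without parental control), 0.20 and 0.038 for *Socs3* with *Il11* (without parental clobetasol and GRKO clobetasol) and 0.29 with *Il6* (without GRKO clobetasol). Without parental clobetasol tumors *Socs3* had 0.78 with *Lif* and 0.74 with *Osm*.

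Depth limits *Il6*, *Lif* and *Osm*, which lie at or near 3 counts in most samples, so differences in them were not detectable here.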
